A study of Mus musculus with 6 samples.

Results

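The 10 genes described here encode 9 lysosomal proteases and cystatin C, a secreted inhibitor of the cysteine proteases among them. They are the cysteine cathepsins *Ctsb*, *Ctsc*, *Ctsh*, *Ctsk*, *Ctsl* and *Ctss*, the aspartic cathepsin *Ctsd*, the serine carboxypeptidase *Ctsa*, legumain (*Lgmn*) and cystatin C (*Cst3*). They were chosen by symbol, as 10 of the 55367 gene symbols listed for each library. All 10 reached the minimum of 1 FPKM in at least 2 libraries that 14862 symbols passed, and each was read in all 6 libraries. FPKM scales the fragments of a gene to its length and to the size of the library, so that levels are given per length. Whether values of the MMPP-treated libraries compare with the others gene by gene is limited by differences between the libraries that are described below.

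RNA was sequenced from kidney cells of mice that bind DBA, a plant lectin that marks collecting duct epithelium, which had been pulled from digested kidneys with biotinylated lectin and beads. The 3 groups, with 2 libraries each and all labelled Day115, were WT (Pkd1+/+) mice, Pkd1-/- mice (ADPKD), and Pkd1-/- mice injected into a vein with MMPP (ADPKD+MMPP), a small melanin-like nanoparticle that carries manganese and polyethylene glycol. The ADPKD mice were male Pkd1 fl/fl;Cre/Esr1+ animals that received tamoxifen in the fourth week after birth, and MMPP was given from the eighth week. The Cre is switched on by tamoxifen and its driver is not given in the sources used here, nor are the strain, whether the WT mice carried the Cre, or whether a library holds 1 animal or several. The p-values below therefore measure the spread between these libraries, which may be technical. In bulk RNA, fewer cells of a type and less RNA per cell cannot be told apart.

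Lysosomal proteases are made as inactive precursors, are carried to the lysosome mostly on mannose 6-phosphate receptors, and are activated at acid pH by each other or by themselves. Cathepsins B, L and D are the main endopeptidases for protein that epithelial cells take up or send to autophagy, while cathepsins S and K are best known in macrophages and in osteoclasts, where they cut antigen chaperones and collagen. Cystatins bind cysteine cathepsins tightly and reversibly, and cystatin C is the one secreted by nearly every cell.

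The libraries did not all look alike. The depth read from the steps of single reads in the low FPKM values was 30.5 to 33.2 M reads in the WT and ADPKD libraries and 10.9 to 11.8 M reads in the ADPKD+MMPP libraries. Between 35.4% and 37.3% of the low read numbers were odd in the WT and ADPKD libraries, against 7.68% to 8.11% in the ADPKD+MMPP libraries, and because this difference falls on 1 group only, it and the treatment cannot be told apart. Its origin was not tested, and a read worked out from FPKM in the treated libraries may not be the same unit as in the others. Replicates correlated across the tested genes, which are not independent, with Pearson's r between 0.958 and 0.992. The WT pair and the ADPKD pair did not agree within sampling noise. For the treated pair this could not be judged, because the unit of its reads is uncertain. *Pkd1*, the deleted gene, had 17.7 and 17.2 FPKM in WT, 7.64 and 8.91 in ADPKD, and 4.34 and 3.99 after MMPP. In ADPKD it fell by 0.998 on the log2 scale (SE 0.13, limma, adjusted p = 0.00566). With the lectin selection in place, markers of principal cells, the main cells of the collecting duct, summed to 2074 and 2772 FPKM in WT, 2462 and 934 in ADPKD, and 5414 and 5438 in ADPKD+MMPP.

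In WT cells *Cst3* stood first at 366 ± 16.3 FPKM (SD, n = 2), followed by *Ctsd* at 150.1 ± 23.1 (SD, n = 2). *Ctsb* and *Ctsl*, the main cysteine endopeptidases of epithelial lysosomes, came next at 76.7 ± 0.399 and 76.6 ± 12.5 FPKM (SD, n = 2), and they did not differ beyond their spread. *Lgmn*, *Ctsa* and *Ctsh* lay between 18.6 and 43.4 FPKM in every WT library. The lowest were *Ctss* at 10.3 ± 1.65, *Ctsc* at 6.56 ± 0.786 and *Ctsk* at 5.48 ± 0.955 FPKM (SD, n = 2), and *Ctsc* and *Ctsk* overlapped.

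**Figure D1:**
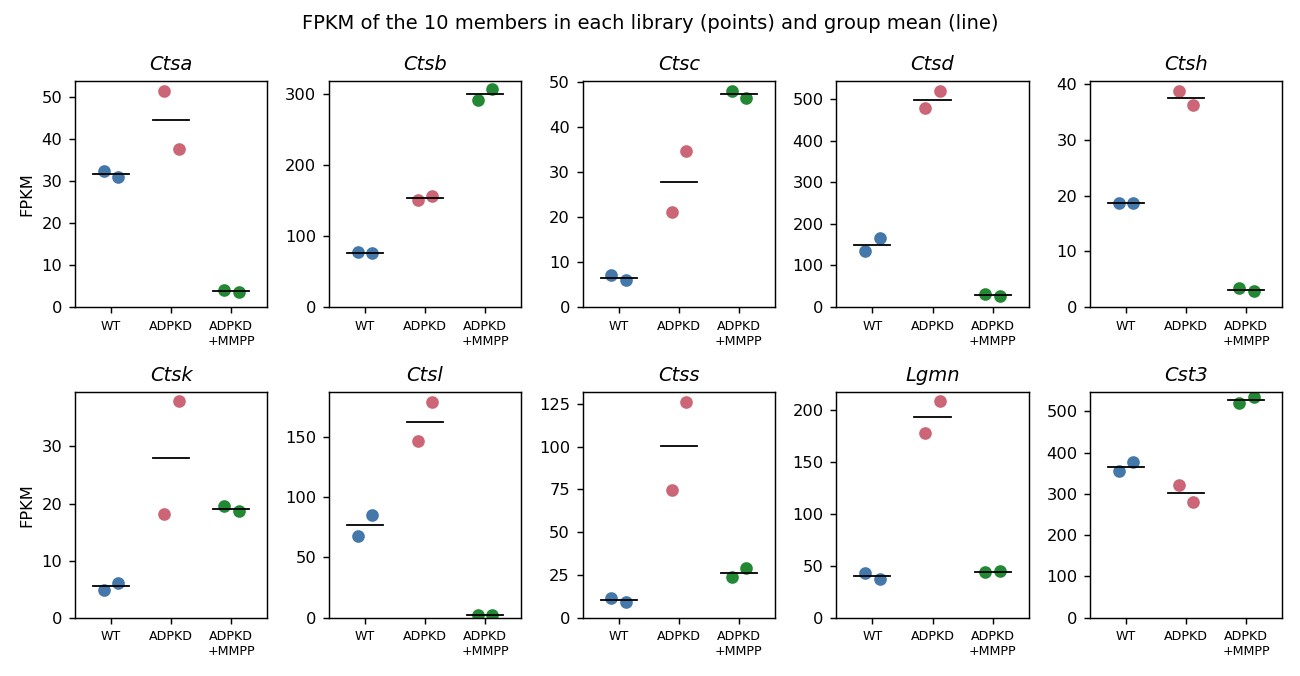
FPKM of each member (vertical axis, linear and from 0, with its own scale in each panel) in the 2 libraries of WT, ADPKD and ADPKD+MMPP (points), with the mean of each group as a line. *Lgmn* stands at 177 and 209 FPKM in ADPKD and between 37.5 and 45.0 in the other 4 libraries, while *Ctsl* falls from 147 and 179 to 1.92 and 2.26 FPKM after MMPP.

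The first comparison asks how the protease genes differ between cystic and normal kidney cells. Of the 10 members, 8 were higher in ADPKD than in WT and none was lower, where 11.9% of all tested genes were called higher and 10.6% lower. Calls were made with limma on log2(FPKM + 1) and needed an adjusted p under 0.05 (Benjamini-Hochberg, over all 14862 genes) together with a 1.5-fold change. Fold changes on this scale understate those of low genes. The median log2 fold change of the members was 1.41, beside 0.03 over all tested genes. For every member the WT and ADPKD libraries were clear of each other, with 9 members above WT and 1 below, and the same held for 67% of all tested genes. At an unadjusted p under 0.05 the counts were 8 and 0 as well, beside 14.2% and 12.5% of all tested genes. The adjusted p given below draw on the spread of the treated libraries too. In a fit over the WT and ADPKD libraries alone the called members kept their calls, with larger limma adjusted p, from 0.0194 (*Lgmn*) to 0.0366 (*Ctsk*).

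Among the cysteine cathepsins, the gene with the largest change was *Ctss*, which encodes a cathepsin that stays active at neutral pH and trims the invariant chain of MHC class II. It had 11.5 and 9.16 FPKM in WT and 74.4 and 126 in ADPKD. Both ADPKD libraries lay far above both WT libraries, although they also differed from each other. Its mean FPKM rose 9.72-fold. On log2(FPKM + 1) the log2 fold change was 3.12 (SE 0.28, limma, adjusted p = 0.00332), and only 49 of the 14862 tested genes had a larger one.

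*Ctsk* lies next to *Ctss* on chromosome 3 and encodes a strong collagenase. It had 4.80 and 6.15 FPKM in WT and 18.2 and 37.9 in ADPKD, so the ADPKD libraries were both higher and were also far apart from each other. The log2 fold change was 2.09 (SE 0.33, limma, adjusted p = 0.0102). *Ctsc*, or dipeptidyl peptidase 1, which activates the serine proteases of granules, had 7.11 and 6.0 FPKM in WT and 21.2 and 34.7 in ADPKD. Its groups were clear of each other, and the log2 fold change was 1.90 (SE 0.24, limma, adjusted p = 0.00562). In all 3 of these genes the second ADPKD library was the higher one, as it was for *Ctsb*, *Ctsd*, *Ctsl* and *Lgmn*.

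*Ctsk* is on chromosome 3 from 95499256 to 95509362 and *Ctss* from 95526786 to 95556403, both on the plus strand of GRCm38, with no CACGTG in the RefSeq promoter windows of either (the motif is taken up further on). The 250 bases before the RefSeq start site of each are shown because these neighbours had the largest rises of the cysteine cathepsins. Their GC content was 43.2% and 44.8%. Both are from GRCm38.p6, at chr3:95498960-95499209 and chr3:95526536-95526785.
Ctsk, plus strand: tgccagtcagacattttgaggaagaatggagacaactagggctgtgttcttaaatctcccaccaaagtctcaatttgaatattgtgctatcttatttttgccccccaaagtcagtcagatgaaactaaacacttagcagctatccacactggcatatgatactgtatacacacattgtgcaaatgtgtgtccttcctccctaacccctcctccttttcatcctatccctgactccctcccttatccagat
Ctss, plus strand: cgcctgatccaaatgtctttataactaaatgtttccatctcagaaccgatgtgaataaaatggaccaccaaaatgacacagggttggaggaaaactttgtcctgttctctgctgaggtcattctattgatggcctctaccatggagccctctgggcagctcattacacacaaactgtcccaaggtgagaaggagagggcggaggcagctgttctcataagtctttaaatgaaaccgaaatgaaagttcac

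The broadly expressed cysteine cathepsins rose less. *Ctsb* had 76.9 and 76.4 FPKM in WT and 151 and 157 in ADPKD. Replicates were close and the groups well apart, with a log2 fold change of 0.996 (SE 0.11, limma, adjusted p = 0.00453). *Ctsl* had 67.8 and 85.5 FPKM in WT and 147 and 179 in ADPKD, and again every ADPKD library exceeded every WT library. Its log2 fold change was 1.08 (SE 0.17, limma, adjusted p = 0.0104). *Ctsh*, an aminopeptidase, had 18.6 and 18.7 FPKM in WT against 38.8 and 36.2 in ADPKD. The pair of WT values was nearly identical, and the log2 fold change was 0.97 (SE 0.12, limma, adjusted p = 0.00566). The ratio of *Ctsb* to *Ctsl*, taken on FPKM, was 1.13 and 0.894 in WT and 1.03 and 0.879 in ADPKD.

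*Ctsd*, the main aspartic protease of lysosomes, had the largest gain in FPKM. It stood at 134 and 166 FPKM in WT and at 479 and 519 in ADPKD. In ADPKD it passed *Cst3* to become the highest of the members, with a log2 fold change of 1.73 (SE 0.15, limma, adjusted p = 0.00332). *Lgmn*, the asparaginyl endopeptidase that processes several cathepsins, had 43.4 and 37.5 FPKM in WT and 177 and 209 in ADPKD. The gap was wide against the spread of either group, and the log2 fold change was 2.23 (SE 0.14, limma, adjusted p = 0.00199). *Lgmn* moved from the fifth place among the members in WT to the third in ADPKD, where it overlapped *Ctsl*.

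A pair of members was not called. *Ctsa*, which also protects the neuraminidase and beta-galactosidase of lysosomes, had 32.4 and 30.9 FPKM in WT and 51.4 and 37.6 in ADPKD. Both ADPKD values lay above WT, with a log2 difference of 0.46 (SE 0.17, limma, adjusted p = 0.104). *Cst3* had 354 and 377 FPKM in WT and 321 and 281 in ADPKD. It was the only member whose ADPKD libraries both lay below WT, and its log2 difference was -0.28 (SE 0.13, limma, adjusted p = 0.152).

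Leaving out the first WT library left 5 members called higher, since *Ctsh*, *Ctsk* and *Ctsl* then had limma adjusted p of 0.0503, 0.0782 and 0.0712. Without the second WT library 6 remained, as *Ctsc* and *Ctsk* had adjusted p of 0.0506 and 0.0595. In each case the log2 fold changes were 0.91 or larger and positive.

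**Figure D2:**
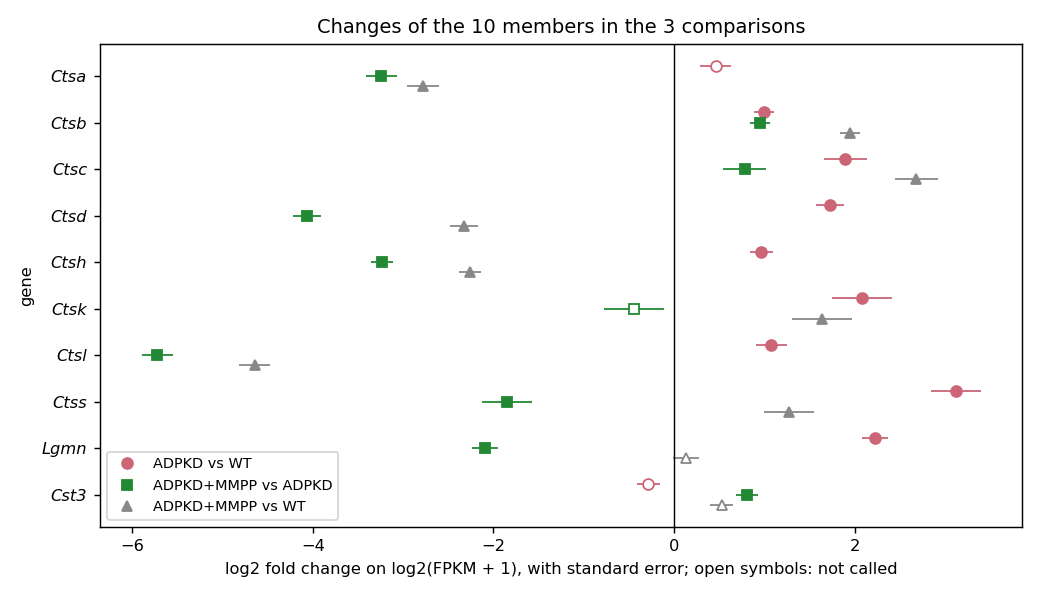
Log2 fold change on log2(FPKM + 1) of each member (horizontal axis) with its standard error, for ADPKD against WT (circles), ADPKD+MMPP against ADPKD (squares) and ADPKD+MMPP against WT (triangles). Filled symbols are called and open ones are not. The 3 comparisons share libraries, and the squares run from -5.72 for *Ctsl* to 0.96 for *Ctsb*.

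The balance of the set also differed. The 10 members summed to 751 and 814 FPKM in WT and to 1479 and 1616 in ADPKD. The 9 protease genes summed to 1.12 and 1.16 times the FPKM of *Cst3* in WT and to 3.60 and 4.76 times in ADPKD. *Ctsd* made up 17.8% and 20.4% of the summed FPKM of the members in WT and 32.4% and 32.1% in ADPKD, while the share of *Ctsb* was much the same, at 9.38% to 10.3% in these 4 libraries. *Cst3* fell from 47.2% and 46.4% of the sum to 21.7% and 17.4%. These shares are descriptions and were not tested.

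Markers of other cell types moved along with these genes. The 12 macrophage markers summed to 158 and 184 FPKM in WT and 574 and 690 in ADPKD. Of the 11 that were tested, 9 were higher and 2 were lower, among them *Mrc1*. Lysozyme 2 (*Lyz2*), an enzyme of macrophages and granulocytes, went from 7.63 and 8.69 to 188 and 224 FPKM, and *Csf1r*, the receptor for the macrophage growth factor, went from 5.0 and 8.04 to 17.0 and 25.6. No macrophage marker was at 0 throughout, and *Cx3cr1*, which was not tested, reached at most 0.624 FPKM. The second ADPKD library had the higher macrophage sum, 690 against 574 FPKM, and the lower principal cell sum, 934 against 2462. It was also the higher of the pair for *Ctss*, *Ctsk*, *Ctsc*, *Ctsb*, *Ctsd*, *Ctsl* and *Lgmn*, and the lower for *Ctsa*, *Ctsh* and *Cst3*. *Adgre1*, which encodes the macrophage antigen F4/80, ran the other way, with 11.6 FPKM in the first ADPKD library and 6.60 in the second. *Fcgr1* and *Cx3cr1*, both low, did so too. The part of macrophages in the rise of the protease genes was not tested.

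Fibroblast markers summed to 105 and 84.1 FPKM in WT and 153 and 172 in ADPKD, with 5 of 7 higher and 1, *Pdgfrb*, lower. Other leukocyte markers stayed low, at 2.66 to 13.6 FPKM in these 4 libraries, with 1 of the 3 tested, *Ptprc*, higher. All 5 endothelial and all 5 podocyte markers were lower in ADPKD, as were 5 of 6 intercalated cell markers, whereas limma called none of the 6 tested principal cell markers and none of the 4 thick limb and distal tubule markers in either direction. At an unadjusted p these last counts were 0, and 0 higher and 2 lower. Of the 10 proximal tubule markers 3 were higher, *Cubn*, *Lrp2* and *Slc5a12*, and at an unadjusted p 3 were higher and 1 lower. These 10 markers had a median log2 fold change of -0.50 and summed to 487 and 289 FPKM in WT and 355 and 199 in ADPKD. Their part in the values of the proteases was not tested.

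Other genes of the lysosome were read from lists. Of 81 further lysosomal genes tested, 17 were higher in ADPKD, 1 was lower and 63 were not called, and their median log2 fold change was 0.24. Over all tested genes 11.9% were called higher and 10.6% lower. Among 9 tested further cathepsins and lysosomal peptidases, 1 was called in limma and 2 at an unadjusted p. It was *Napsa*, an aspartic protease that went from 3.86 and 3.05 FPKM in WT to 53.9 and 20.9 in ADPKD. *Ctsz*, a carboxypeptidase, had 66.0 and 62.0 FPKM in WT and 125 and 83.6 in ADPKD and was not called (log2 difference 0.67, SE 0.21, limma, adjusted p = 0.0630). The 8 cathepsins that belong to the rodent placenta were listed at 0 in all 6 libraries.

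Of the other inhibitors, 3 of the 15 cystatins, stefins and Ctla2 proteins listed had enough signal to be tested. *Cstb*, the cystatin of the cytosol, was higher in ADPKD, from 112 and 142 FPKM to 341 and 404, with a log2 fold change of 1.55 (SE 0.16, limma, adjusted p = 0.00415). *Cst3* and *Cstb* thus stood on opposite sides of 0 in this comparison. Each value of *Cstb* in ADPKD was above each value of *Cst3* in the same library, the reverse of the order in WT.

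The hydrolases of sugars, lipids and phosphate gave 7 higher and 0 lower of 35 in limma, and 8 and 1 at an unadjusted p. *Acp5*, the acid phosphatase of osteoclasts and macrophages, had the largest change, from 0.983 and 0.366 to 4.99 and 7.04 FPKM. *Galns*, a sulfatase, went from 3.97 and 3.66 to 15.8 and 11.5 FPKM, and *Gm2a*, the GM2 activator, from 8.0 and 8.86 to 19.4 and 12.3. Among 17 lysosomal membrane genes, 4 were higher, *Cd63*, *Lamp2*, *Laptm5* and *Npc2*, and *Laptm4a* was lower. *Laptm5*, which is known from blood cells, went from 5.32 and 2.78 to 15.3 and 18.4 FPKM.

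The sorting receptors carry the proteases to the lysosome. Of 13 genes of this transport, 4 were higher in ADPKD, *Cln6*, *Igf2r*, *M6pr* and *Sorl1*. *M6pr*, the cation-dependent mannose 6-phosphate receptor, had 30.9 and 30.3 FPKM in WT and 53.0 and 52.2 in ADPKD, and *Sorl1*, a sorting receptor of the Golgi, had 10.2 and 7.93 in WT and 29.8 and 23.9 in ADPKD. None of the 4 MiT/TFE factors, which drive lysosomal genes, was called in limma, and none had an unadjusted p under 0.05 with a fold change of 1.5. *Tfeb* had 7.58 and 7.08 FPKM in WT and 5.77 in each ADPKD library (log2 difference -0.30, SE 0.12, limma, adjusted p = 0.114).

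**Figure D3:**
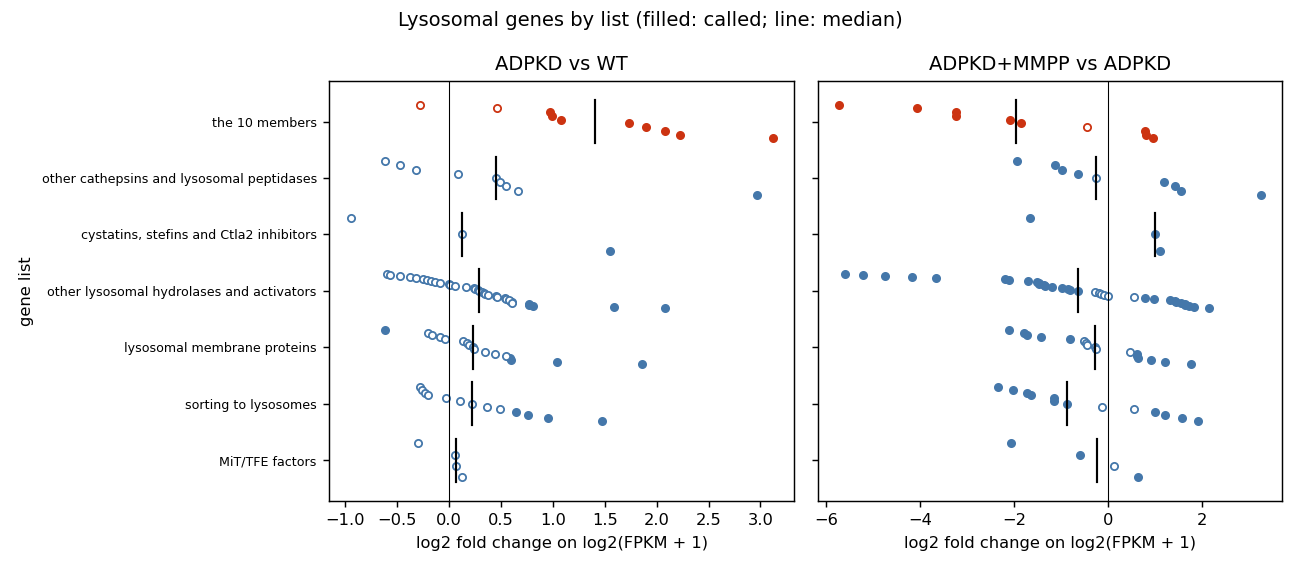
Log2 fold change on log2(FPKM + 1) (horizontal axis) of every tested gene of each lysosomal gene list (vertical axis) in ADPKD against WT (left) and ADPKD+MMPP against ADPKD (right). Filled points are called, open points are not, and lines are medians: 1.41 for the 10 members in ADPKD against WT and -1.97 after MMPP.

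MiT/TFE factors bind CACGTG, the core of the motif shared by many lysosomal promoters, so the promoters of the members were read for it. RefSeq windows from 250 bases before to 50 bases after a start site on GRCm38.p6 were at hand for 8 members, 10 windows in all, with none for *Ctsb* and *Ctsh* in the table used. CACGTG, which reads the same on both strands, was in 4 of the 10 windows and in 7.15% of all 32851 windows. These were windows of *Ctsa*, *Ctsd*, *Ctsl* and *Lgmn*. The longer form TCACGTGA, which contains CACGTG, was in windows of *Ctsa* and *Ctsd* and in 0.974% of all windows. TGACGTCA, the full cAMP response element bound by CREB, was in no member window and in 1.79% of all, and its shorter form TGACG, on either strand, was in that of *Ctsd* alone and in 20.8% of all. Such a match is a run of letters and not a measured site.

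The stretches of 30 bases that hold each CACGTG are printed on the strand of the gene, with the motif in capitals. Those of *Ctsa* begin their motif 12 bases before and 5 bases after the start site, at chr2:164833749-164833778 and chr2:164833766-164833795. Those of *Ctsd* begin it 245 and 98 bases before, at chr7:142388048-142388077 and chr7:142387908-142387937. Those of *Lgmn* and *Ctsl* begin it 49 and 236 bases before, at chr12:102439124-102439153 and chr13:64370739-64370768. The stretches of *Ctsa*, *Lgmn* and *Ctsl* and the near one of *Ctsd* lie inside the genes as GENCODE annotates them. The far one of *Ctsd* lies outside. The outer RefSeq windows of *Ctsa* and *Lgmn*, at chr2:164832622-164832921 and chr12:102439679-102439978, held no CACGTG. All 4 genes with a CACGTG were lower after MMPP, as were 6 of all 10 members, and all but *Ctsa* were higher in ADPKD, as were 8 of all 10. *Ctss*, *Ctsk* and *Ctsc*, with no CACGTG in their windows, were higher in ADPKD too. Any link between the motif and these changes was not tested.
Ctsa, first, plus strand: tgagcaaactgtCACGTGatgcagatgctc
Ctsa, second, plus strand: gatgcagatgctCACGTGaccagagctaca
Ctsd, far, minus strand: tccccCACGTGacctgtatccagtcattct
Ctsd, near, minus strand: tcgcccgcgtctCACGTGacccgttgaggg
Lgmn, minus strand: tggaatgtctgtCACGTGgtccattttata
Ctsl, minus strand: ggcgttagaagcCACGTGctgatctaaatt

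The second comparison asks what differed in ADPKD cells after MMPP. Of the 10 members, 6 were lower in ADPKD+MMPP than in ADPKD, 3 were higher and 1 was not called, where 42.6% of all tested genes were called lower and 27.7% higher. The comparison shares the ADPKD libraries with the one above. The median log2 fold change of the members was -1.97, beside -0.36 over all tested genes. For 9 members the treated and untreated libraries were clear of each other, as they were for 87.8% of all tested genes.

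The largest drop was that of *Ctsl*, from 147 and 179 FPKM in ADPKD to 1.92 and 2.26 after MMPP. The treated values were the lowest of any member in any library, far below the 67.8 and 85.5 FPKM of WT. Its log2 fold change was -5.72 (SE 0.17, limma, adjusted p = 1.96e-05), and 22 of the 14862 tested genes fell further. The treated values rest on 147 and 160 reads worked out from FPKM, length and depth, in the unit that is uncertain for these libraries. The ratio of *Ctsb* to *Ctsl*, near 1 in the other libraries, was 152 and 136 in ADPKD+MMPP.

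*Ctsd* had 479 and 519 FPKM in ADPKD and 30.6 and 27.2 in ADPKD+MMPP. It went from the highest member to the fifth, and the log2 fold change was -4.06 (SE 0.15, limma, adjusted p = 2.21e-05). *Ctsa* had 51.4 and 37.6 FPKM in ADPKD against 3.93 and 3.58, a log2 fold change of -3.24 (SE 0.17, limma, adjusted p = 4.29e-05). *Ctsh* went from 38.8 and 36.2 FPKM to 3.35 and 2.85, a log2 fold change of -3.23 (SE 0.12, limma, adjusted p = 2.21e-05). For all 4 of these genes the treated libraries were also below both WT libraries, by a log2 of 2.26 for *Ctsh* up to 4.64 for *Ctsl*. With the centring by exon bases described further on, *Ctsd* differed from WT by a log2 of -0.40 and was not called.

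*Lgmn* had 177 and 209 FPKM in ADPKD and 43.8 and 45.0 in ADPKD+MMPP. The treated values were close to the 43.4 and 37.5 FPKM of WT. The fall was a log2 of -2.09 (SE 0.14, limma, adjusted p = 8.22e-05), and the log2 difference from WT was 0.13 (SE 0.14, limma, adjusted p = 0.416). *Ctss* had 74.4 and 126 FPKM in ADPKD and 23.8 and 28.9 in ADPKD+MMPP. It lay between the other groups and overlapped neither, with a log2 fold change of -1.85 against ADPKD (SE 0.28, limma, adjusted p = 0.00150) and of 1.27 against WT (SE 0.28, limma, adjusted p = 0.00648).

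*Ctsk* had 18.2 and 37.9 FPKM in ADPKD and 19.5 and 18.7 in ADPKD+MMPP. The treated libraries lay just above the lower ADPKD library, and the log2 difference of -0.45 was not called (SE 0.33, limma, adjusted p = 0.264). This value turned on 1 library: it was 0.06 without the second ADPKD library and -0.95, and called, without the first. Against WT, *Ctsk* was higher by a log2 of 1.64 (SE 0.33, limma, adjusted p = 0.00508), a call that was lost at a log2 of 0.33 when libraries were centred by transcript structure, as described further on.

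A further 3 members rose. *Ctsb* had 151 and 157 FPKM in ADPKD and 292 and 307 in ADPKD+MMPP, so that its levels in the 3 groups did not overlap and its log2 fold change was 0.96 (SE 0.11, limma, adjusted p = 0.000546). *Ctsc* had 21.2 and 34.7 FPKM in ADPKD and 48.2 and 46.6 in ADPKD+MMPP. Both treated values exceeded both ADPKD values, with a log2 fold change of 0.78 (SE 0.24, limma, adjusted p = 0.0256). *Cst3* had 321 and 281 FPKM in ADPKD and 520.2 and 535 in ADPKD+MMPP, which were its highest levels, and its log2 fold change was 0.81 (SE 0.13, limma, adjusted p = 0.00176). The call for *Ctsc* was lost without the first ADPKD library, at a log2 of 0.44, and without either treated library, at limma adjusted p of 0.0906 and 0.104.

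The calls of these rises depended on the scaling. With quantile normalization none of the 3 was called and with the libraries set to a common sum of FPKM only *Ctsb* was, while the 6 falls kept their calls under both.

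**Figure D4:**
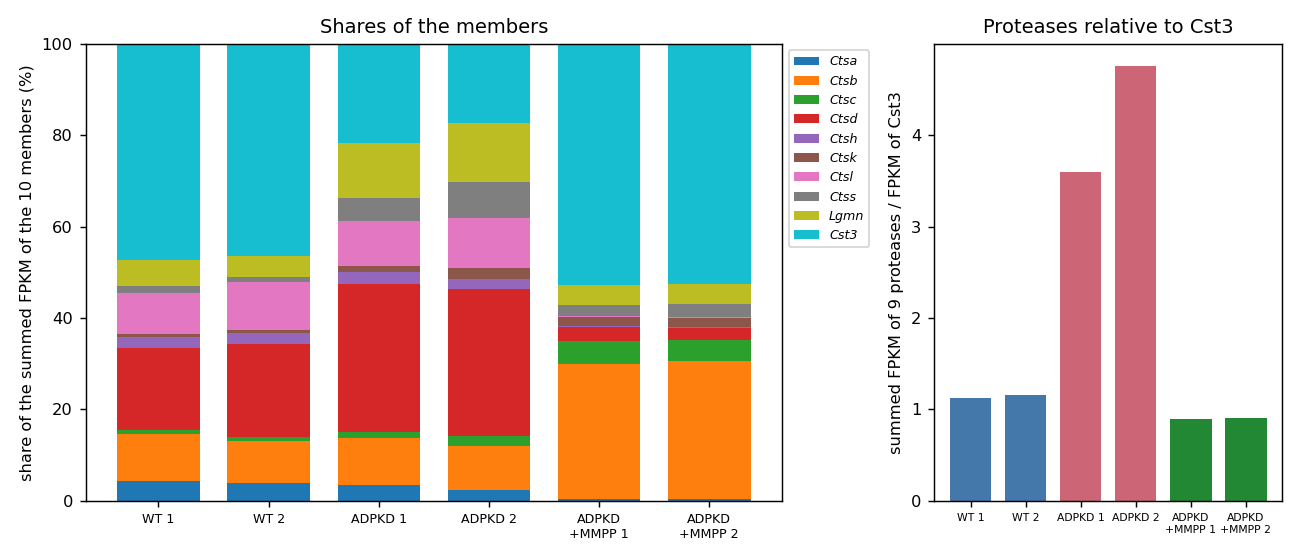
Left, the share of each member in the summed FPKM of the 10 members (percent, stacked bars from 0) in each library. Right, the summed FPKM of the 9 protease genes divided by the FPKM of *Cst3*, which is 3.60 and 4.76 in ADPKD and 0.899 to 1.16 in the other 4 libraries.

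After MMPP the order of the members was *Cst3* at 527 ± 10.3 FPKM, *Ctsb* at 299.6 ± 10.2, *Ctsc* at 47.4 ± 1.10 and *Lgmn* at 44.4 ± 0.868 (SD, n = 2). *Ctsd* at 28.9 ± 2.41 and *Ctss* at 26.4 ± 3.58 FPKM (SD, n = 2) did not differ beyond their spread. *Ctsa*, *Ctsh* and *Ctsl* closed the order below 4 FPKM. The sum of the members was 988 and 1017 FPKM, between those of WT and ADPKD. Over all genes FPKM summed to 350159 and 351015 in these libraries, 266194 and 266726 in WT and 284459 and 281586 in ADPKD. The members made up 0.282% and 0.290% of that total after MMPP, 0.282% and 0.305% in WT, and 0.520% and 0.574% in ADPKD. *Ctsb* made up 29.6% and 30.2% of the sum of the members and *Ctsd* 3.10% and 2.68%, and *Cst3* came to 52.7% and 52.6%. The proteases summed to 0.899 and 0.901 times the FPKM of *Cst3*.

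Against WT, 4 members were higher in ADPKD+MMPP (*Ctsb*, *Ctsc*, *Ctsk* and *Ctss*) and 4 were lower (*Ctsa*, *Ctsd*, *Ctsh* and *Ctsl*), where 29.9% of all tested genes were called higher and 43.5% lower. *Ctsc* had the largest rise, a log2 of 2.68, and *Ctsl* the largest fall. *Cst3* differed by a log2 of 0.53 (SE 0.13, limma, adjusted p = 0.00964), a fold change below 1.5, and *Lgmn* is given above.

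The members that fell and those that rose differed in how their genes are annotated. For each gene of GENCODE vM21, the share of its coding bases that lie in exactly 1 annotated transcript was taken. It was 0% for *Ctsa* and *Lgmn*, 0.293% for *Ctss*, 0.497% for *Ctsl*, 1.46% for *Ctsd* and 9.84% for *Ctsh*, and these 6 are the members that were lower after MMPP. It was 19.3% for *Cst3*, 30.2% for *Ctsb* and 48.3% for *Ctsc*, the 3 that were higher, and 100% for *Ctsk*, which has 1 transcript. *Ctsa* has 16 annotated transcripts and *Ctsh* 11.

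The same split ran through the whole table. Of 7379 tested protein-coding genes with a share under 10%, 61.3% were lower after MMPP and 10.8% higher, with a median log2 fold change of -0.99. Of 2670 genes with 20% to under 100%, 61.9% were higher and 8.88% lower, with a median of 0.86, and in 1361 genes at 100% the median was 1.10. *Ctsl*, *Ctsd*, *Ctsa* and *Ctsh* lay well below the median of the first of these classes, and *Lgmn* and *Ctss* lay below it by less. *Ctsk* lay below the median of the last. In ADPKD against WT the medians of these classes were between 0.01 and 0.06. Across the 12374 genes Spearman's rho between the share and the log2 fold change was 0.54 after MMPP and 0.02 in ADPKD against WT, as a description, since genes share libraries.

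**Figure D5:**
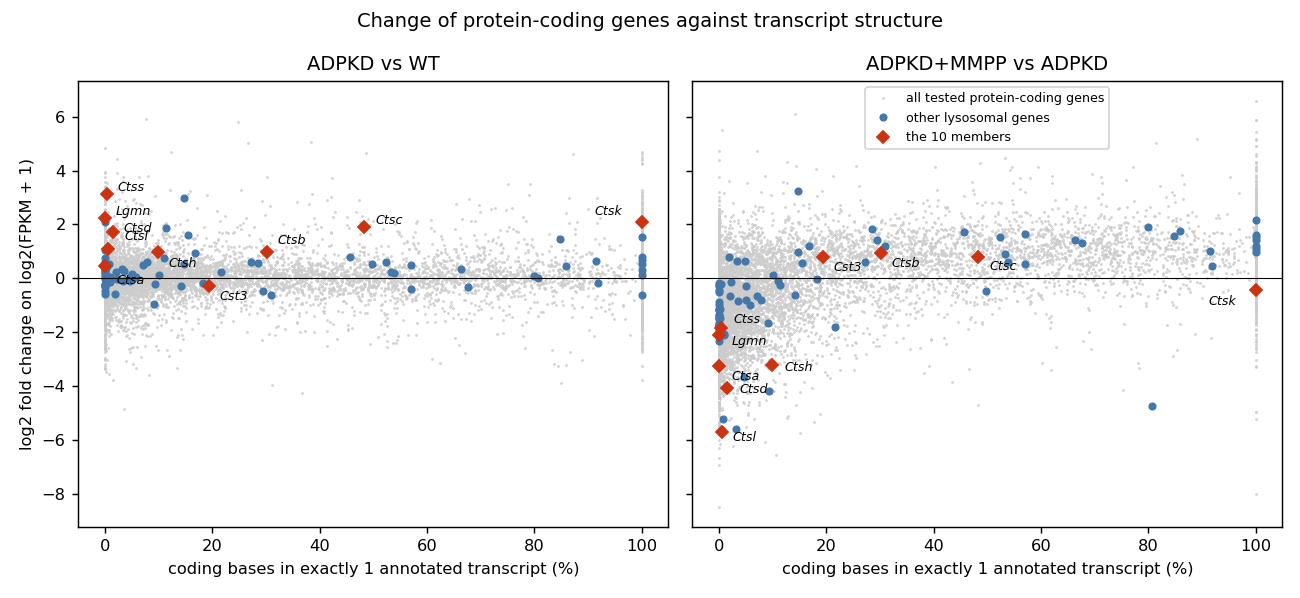
Log2 fold change on log2(FPKM + 1) (vertical axis) against the percentage of a gene's coding bases found in exactly 1 annotated transcript (horizontal axis), for ADPKD against WT (left) and ADPKD+MMPP against ADPKD (right). Grey points are all 12374 tested protein-coding genes, blue points other lysosomal genes and red diamonds the 10 members. On the right the 6 members under 10% lie between -5.72 and -1.85.

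As an alternative added once the data had been seen, libraries were centred in bins of genes with a like share. *Ctsa*, *Ctsd*, *Ctsh*, *Ctsl* and *Lgmn* were still called lower after MMPP. The log2 fold change of *Ctss* was then -0.43 and was not called, none of the 3 rises was called, and *Ctsk* was called lower at -1.60. *Lgmn*, level with WT in the deposited values, was then higher than WT by a log2 of 1.34. With centring by the share of all exon bases, *Lgmn* had a log2 difference of -0.45 from ADPKD and was not called either, and *Ctss* had 0.26. The cause of the split was not tested, and because it falls on all treated libraries it cannot be told apart from the treatment.

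The other lysosomal genes divided along the same line. Of the 81, 28 were higher and 37 lower after MMPP, where 27.7% of all tested genes were called higher and 42.6% lower. Among the 46 with a share under 10%, 3 were higher and 34 lower, whereas among the 27 with 20% or more, 22 were higher and 2, *Gla* and *Tmem192*, were lower. *Gla*, the alpha-galactosidase, has a share of 80.7% and went from 33.3 and 23.3 FPKM in ADPKD to 0.104 and 0.0561.

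By role, 4 of the 9 further peptidases were higher after MMPP (*Ctso*, *Ctsz*, *Napsa* and *Scpep1*) and 4 lower (*Cpq*, *Ctsf*, *Prcp* and *Tpp1*). *Napsa* went on from 53.9 and 20.9 FPKM to 334 and 326, and *Ctsz*, with 1 annotated transcript, from 125 and 83.6 to 289.8 and 313. *Ctsf*, with 12 transcripts, went from 10.9 and 7.97 to 1.71 in both. Of the inhibitors, *Cstb*, with 1 transcript, rose from 341 and 404 to 746 and 734 FPKM, a log2 fold change of 0.99 (SE 0.16, limma, adjusted p = 0.00223), *Cst7* was also called higher, at 1.03 and 1.67 FPKM, and *Ctla2a* fell.

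Of the 35 hydrolases and activators, 11 were higher and 18 lower, beside 27.7% and 42.6% of all tested genes. *Psap*, the precursor of the saposins, went from 519 and 443 FPKM to 9.32 and 8.48, and *Grn*, the progranulin gene, from 73.8 and 74.1 to 0.829 and 1.21. Of the 17 membrane genes, 6 were higher and 5 lower (*Cln3*, *Ctns*, *Slc17a5*, *Tmem175* and *Tmem192*), with *Lamp1*, a main glycoprotein of the lysosomal membrane, going from 244 and 184 to 724 and 725 FPKM. Of 13 sorting genes, 4 were higher (*Cln6*, *Igf2r*, *Sorl1* and *Vps35*), and 7 were lower, among them *M6pr*, which went from 53.0 and 52.2 FPKM to 9.38 and 9.76. Of the 4 MiT/TFE factors *Mitf* was higher and *Tfeb* and *Tfe3* were lower.

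Macrophage markers summed to 1208 and 1268 FPKM after MMPP, above the 574 and 690 of ADPKD. Of the 11 tested, 5 were higher (*C1qa*, *C1qb*, *C1qc*, *Fcgr1* and *Lyz2*) and 4 lower (*Adgre1*, *Cd68*, *Csf1r* and *Itgam*). *Lyz2*, with 1 transcript, had 568 and 565 FPKM, *Csf1r*, with 6, had 0.381 and 0.190, and *Itgam* was listed at 0 in both treated libraries. Proximal tubule markers, 7 of 10 higher, summed to 1275 and 1310 FPKM after MMPP against 355 and 199 in ADPKD. All 6 intercalated cell markers and 4 of 6 principal cell markers were higher, with *Scnn1b* lower, and 3 of 5 endothelial and 3 of 5 podocyte markers were lower. Many of these calls ran along the share of coding bases in 1 transcript. It was 45.2% to 100% for the intercalated markers, 61.5% to 100% for the 4 higher principal cell markers and 2.35% for *Scnn1b*. Among the lower endothelial and podocyte markers it was 0% to 5.66%, except for *Flt1* at 47.5%. *Miox* and *Slc5a2*, at 0.468% and 0%, were higher all the same. Fibroblast markers gave 2 higher and 3 lower of 7, other leukocyte markers 1 higher (*S100a8*) and 1 lower (*Ptprc*) of 3, and limma called none of the 4 thick limb and distal tubule markers, with 1 higher and 1 lower at an unadjusted p. Their part in the changes of the protease genes was not tested.

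Some members share exon bases with other annotated genes, and whether reads were assigned by strand is not given in the sources used here. *Ctsd*, on chromosome 7 from 142375911 to 142388038, shares 34.4% of its exon bases with *Gm49369* on the same strand. *Ctsl*, on chromosome 13 from 64359337 to 64370890, shares 26.8% with the antisense gene *Gm47123* and 6.09% with a pseudogene on its own strand. *Ctsb*, on chromosome 14 from 63122462 to 63145923, shares 12.8% with *Fdft1*, and *Ctsa*, on chromosome 2 from 164832873 to 164841032, 10.5% with *Pltp* and 6.87% with *Neurl2*, each on the opposite strand. The other members, *Ctsc* (chromosome 7, 88278085 to 88310888), *Ctsh* (chromosome 9, 90054152 to 90076089), *Lgmn* (chromosome 12, 102394084 to 102439813), *Cst3* (chromosome 2, 148871722 to 148875692) and the neighbours on chromosome 3, shared no exon base with another gene. The values of *Ctsd*, *Ctsl*, *Ctsb* and *Ctsa* are uncertain to that extent.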

How the data were processed

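RNA-seq libraries of DBA-positive kidney cells (WT, ADPKD and ADPKD+MMPP, 2 each) were grouped by their labels. The authors aligned reads to mm10 with HISAT2 2.1.0, counted them with featureCounts 1.6.0 and deposited FPKM for 55367 symbols in each library. The annotation and the step from counts to FPKM are not given in the sources used here. Symbols were matched to GENCODE vM21 for positions, lengths and transcripts, and 53253 matched 1 gene. FPKM times length fell on whole reads for 98.5% to 99.0% of low values (up to 20 reads, tolerance 0.05), which gave the depth. Since FPKM are not counts, limma 3.58.1 (R 4.3.3) was run on log2(FPKM + 1) in 1 fit over the 6 libraries, for the 14862 genes that reached 1 FPKM in 2 or more libraries, with Benjamini-Hochberg adjustment. A call needed a fold change of 1.5 and an adjusted p under 0.05. In a test on simulated data for ADPKD against WT (14862 genes), 87% of changes of log2 2 and 47% of changes of log2 1 were called. Only 200 genes were changed there and all groups had the same spread, unlike these data, so the rates may not carry over. Counting error was not modelled.

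Members and the 16 gene lists were chosen with earlier results of these data known. All members were named, and of each list the called genes with a mean of at least 5 FPKM in a group, at most 3 a comparison; cell type markers were named where their list moved with a result. Libraries were not treated as paired by replicate number. Promoter windows are from RefSeq (GRCm38.p6). Alternatives covered the pseudocount, filter, scaling, trend, thresholds, libraries fitted, a replicate block, single libraries left out and centring by transcript structure. Genes named beside a count of 5 or fewer were chosen after their values were seen. The values of 1 marker are not reported here.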

Additional observations from a re-analysis of the deposited data

How the results depend on the processing

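Of the member changes recomputed over all alternatives, 529 kept their direction and their side of the threshold, 26 lost and 7 gained a call, and 8 changed sign. This tally overstates how stable the changes are, because many alternatives cannot move a log2 fold change. Those are the filters, trend, thresholds, libraries fitted, replicate block, and leaving out a library of the group not compared. The counts of members called lower, and of those called higher in ADPKD+MMPP against WT, stayed within 1.5 times. Their members did not: against WT, both centrings lost *Ctsk* (0.33 by coding and 0.34 by exon bases) and gained *Lgmn* (1.34 and 1.74) among the higher, and centring by exon bases lost *Ctsd* (-0.40) among the lower. With single libraries left out, 5 to 9 members were higher in ADPKD and 2 or 3 were higher after MMPP. Those higher after MMPP numbered 0 when centred by coding bases in 1 transcript (chosen after seeing the data), 1 when centred by exon bases, 1 at a common sum of FPKM, 0 under quantile normalization and 0 at a fold change of at least 2. Signs changed after MMPP against ADPKD for *Ctsb* (-0.16), *Ctsc* (-0.33) and *Ctss* (0.26) centred by exon bases, *Ctsc* (-0.15) centred by coding bases and *Ctsk*, which ranged from -0.955 to 0.0647 with single libraries left out (without the first and the second ADPKD library). Against WT they changed for *Lgmn* at a common sum (-0.25) and under quantile normalization (-0.15), and for *Cst3* under quantile normalization (-0.0848). The cause was not tested. The median of all genes after MMPP was -0.36 as deposited, -0.55 at a common sum, -0.15 by median ratio and 0.10 under quantile normalization, and the share of called genes that were higher was 39.4%, 31.8%, 46.6% and 53.9%.

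With the replicate number as a block, 8 members were higher in ADPKD, 3 were higher and 6 lower after MMPP, and 4 were higher and 4 lower than WT, so no member's call changed. Deviations of same-numbered libraries correlated at 0.129, -0.00796 and 0.0137 between groups. These values gave no sign of pairing by number, but with 2 libraries a group they cannot exclude it. Over all genes, 3349 were called in ADPKD against WT, 1068 and 1115 without the first and second WT library, and 2359 in a fit over the compared libraries alone.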
